A study of Mus musculus with 6 samples.

Results

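The 10 genes studied here mark the neurectoderm and the anterior neural plate, and they were examined in day 4 embryoid bodies (EBs), floating aggregates in which mouse embryonic stem cells (mESCs) differentiate. The genes were Sox1, Sox3, Pax6, Zic1, Zic2, Otx2, Hesx1, Gbx2, Nes and Six3. They were chosen by name and by no rule on their values, though with earlier results of these data known. All 10 were among the 23353 genes listed by symbol. The wildtype group was the parental W9.5 mESC line. The EVX1-Δfs group was 1 clone of that line (clone 14), in which CRISPR-Cas9 editing had placed small frameshift deletions in both alleles of Evx1, within the homeodomain-encoding second exon. Neither group carried another stated edit. Both were differentiated for 4 days in suspension in medium with serum and without LIF, with 3 libraries each, so a difference between the groups is a difference between this clone and its parent line. Each library held 7597879 to 9914471 reads assigned to genes, recovered from the normalized values.

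The neurectoderm forms from epiblast cells that do not enter the primitive streak, and it gives rise to the brain and spinal cord. SOX1 and SOX3 are SOXB1 transcription factors of neural progenitors, ZIC1 and ZIC2 are zinc finger factors of the dorsal neural plate, and PAX6 is a paired homeodomain factor of the forebrain, eye and spinal cord. OTX2 specifies the forebrain and midbrain, GBX2 the anterior hindbrain, and the border between their domains positions the midbrain-hindbrain organizer. HESX1 and SIX3 are homeodomain factors of the anterior forebrain. Nes encodes nestin, an intermediate filament protein of neural progenitors and not a transcription factor. Several of these genes are also active before a neural plate exists: Otx2, Sox3 and Zic2 are transcribed in the epiblast, and Otx2 in the anterior visceral endoderm.

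Levels spanned a wide range. Nes, Zic2, Otx2 and Sox3 were well above the filter on low values (a normalized read count of 10 or more in 3 or more libraries), Gbx2 and Pax6 were close to it, and Sox1, Zic1, Hesx1 and Six3 were below it. Sox1 and Six3, the most specific to the neural plate, were thus at or near 0 in both genotypes, so the label names the genes and not a neural population shown to be present in these EBs. Of the 10, 6 were tested, and Sox3 was the 1 gene called, lower in EVX1-Δfs EBs. Over all genes tested 5.02% were called, and the call of Sox3 was lost in several other fits. In bulk EBs, fewer cells that transcribe a gene and less RNA of it per cell cannot be told apart.

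**Figure D1:**
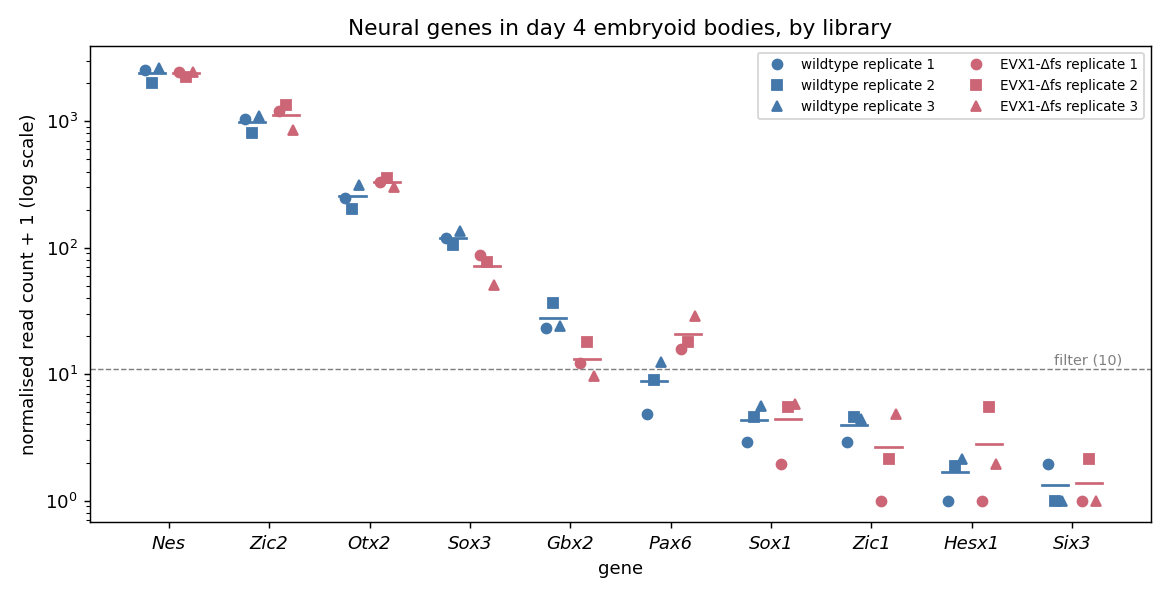
Normalized read count plus 1 (log axis) of the 10 neural genes in each of the 6 libraries, ordered by mean level, with a horizontal bar at each group mean (n = 3) and a dashed line at the filter of 10. The 3 wildtype and the 3 EVX1-Δfs values do not overlap for Sox3, Gbx2 and Pax6, and the 4 genes at the right stay below 5 normalized counts in every library.

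The promoters of the genes whose 2 groups did not overlap, and of Otx2, the partner of Gbx2 at the midbrain-hindbrain border, are shown to give the sequence context of these loci. They are from RefSeq (GRCm38.p6, a later build than the mm9 build of the reads) and run from 250 bases before to 50 bases after a transcription start, 5′ to 3′ on the strand of the gene. That table held 12 starts for 8 of the 10 genes, and Sox3 and Zic2 had no entry. Capitals mark TAATTA, a homeodomain core, and ACAAAG or its reverse complement CTTTGT, a core shared by SOX and TCF/LEF factors. Both strands were searched, and the motifs do not overlap each other. Pax6 had 2 starts and Otx2 had 4, numbered along the gene, of which the 2 with a match are given.
Gbx2, chr1:89931127-89931426, minus strand: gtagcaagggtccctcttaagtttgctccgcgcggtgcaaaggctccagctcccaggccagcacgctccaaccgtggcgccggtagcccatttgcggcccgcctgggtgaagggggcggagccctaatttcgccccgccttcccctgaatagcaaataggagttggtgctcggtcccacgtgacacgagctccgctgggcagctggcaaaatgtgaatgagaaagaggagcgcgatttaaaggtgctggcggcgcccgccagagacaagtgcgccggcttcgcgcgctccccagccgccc
Pax6, upstream start, chr2:105668646-105668945, plus strand: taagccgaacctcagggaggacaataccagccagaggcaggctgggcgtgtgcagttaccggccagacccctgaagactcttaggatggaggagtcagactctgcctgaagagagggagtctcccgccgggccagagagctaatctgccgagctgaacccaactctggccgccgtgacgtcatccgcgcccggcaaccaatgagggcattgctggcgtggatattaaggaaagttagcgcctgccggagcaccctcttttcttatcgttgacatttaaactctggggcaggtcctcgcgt
Pax6, downstream start, chr2:105682213-105682512, plus strand: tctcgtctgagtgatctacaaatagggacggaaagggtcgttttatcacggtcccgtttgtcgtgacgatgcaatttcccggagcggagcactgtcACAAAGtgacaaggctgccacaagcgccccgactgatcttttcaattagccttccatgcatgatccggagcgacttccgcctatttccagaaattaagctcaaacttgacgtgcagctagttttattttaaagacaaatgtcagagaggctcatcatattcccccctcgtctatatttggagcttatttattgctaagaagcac
Otx2, start 1, chr14:48667595-48667894, minus strand: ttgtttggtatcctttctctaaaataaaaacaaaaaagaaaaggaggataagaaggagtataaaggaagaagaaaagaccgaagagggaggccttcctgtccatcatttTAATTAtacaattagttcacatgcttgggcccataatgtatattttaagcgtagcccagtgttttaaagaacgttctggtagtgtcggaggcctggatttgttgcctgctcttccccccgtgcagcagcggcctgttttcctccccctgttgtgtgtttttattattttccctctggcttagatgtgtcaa
Otx2, start 3, chr14:48665060-48665359, minus strand: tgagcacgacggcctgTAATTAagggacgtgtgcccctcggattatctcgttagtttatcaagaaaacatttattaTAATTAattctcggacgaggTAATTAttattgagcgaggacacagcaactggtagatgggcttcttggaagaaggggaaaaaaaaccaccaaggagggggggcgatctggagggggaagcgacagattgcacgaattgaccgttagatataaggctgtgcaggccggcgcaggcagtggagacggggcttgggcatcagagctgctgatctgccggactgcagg

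TAATTA occurred in 5.29% and ACAAAG in 18.7% of all 32851 promoters in the table. Among these genes TAATTA was found for Otx2 alone, with 1 match at start 1 and 3 at start 3, and ACAAAG was found for Pax6 alone, with 1 match at the downstream start. The Gbx2 window held neither. It was 64.7% G and C with 27 CpG dinucleotides, against a median of 52.7% and 7 over all promoters. The Otx2 window at start 1 was at 41.7% with 6 CpG, and that at start 3 was at 51.0% with 16. A match describes the letters only, and whether any factor binds there was not measured.

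Levels were compared between genes per kilobase of annotated exon (GENCODE vM1 on NCBIM37, the assembly of mm9). In wildtype EBs Nes was the highest at 374 ± 52.1 normalized counts per kilobase, followed by Zic2 at 235 ± 35.4, Otx2 at 74.6 ± 16.6, Sox3 at 57.4 ± 7.39 and Gbx2 at 6.31 ± 1.77 (SD, n = 3). Otx2 and Sox3 overlapped in wildtype libraries, at 59.4 to 92.4 and 50.2 to 65.0 per kilobase, so their order there was within the spread. In EVX1-Δfs libraries they were apart, at 88.4 to 105 for Otx2 and 24.0 to 42.1 for Sox3. Pax6, Zic1, Hesx1 and Six3 had group means of at most 1.60 per kilobase in either genotype. The length of Pax6 is the union of all its annotated exons (19833 bases), which lowers its value per kilobase. Sox1 had no match in that annotation and was not placed on this scale.

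To ask whether neural genes differed in the absence of functional EVX1, each gene was compared between the genotypes with limma on log2(normalized count + 1). Of 13136 genes tested, 2.08% were called higher and 2.95% lower in EVX1-Δfs EBs (5.02% in either direction) at a Benjamini-Hochberg adjusted p under 0.05. These were 273 and 387 genes, which became 370 and 325 with upper-quartile factors and 76 and 146 with the replicate number as a block. The replicate number was taken to mark a shared differentiation day, which the sample labels do not state. Of the 10 neural genes 6 were tested, with 0 called higher and 1 lower. The same 2 counts came from edgeR, and from DESeq2 over the 4 genes to which it gave an adjusted p. With the block, 0 were lower. In limma without the block, 4 of the 6 had an unadjusted p under 0.05, as had 23.1% of all genes tested. Pax6 passed the filter through the EVX1-Δfs libraries, since only 1 wildtype library reached 10, so its inclusion already favoured a difference.

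Sox3, a single-exon gene on chromosome X from 58144545 to 58146605 (minus strand), was the gene called. The wildtype replicates 1, 2 and 3 held 118, 104 and 134 normalized counts, against 86.8, 75.6 and 49.5 in the EVX1-Δfs replicates, in the same order. Every EVX1-Δfs library was below every wildtype library, with EVX1-Δfs replicate 3 the lowest of all. On average it fell from 118 ± 15.2 to 70.6 ± 19.1 (SD, n = 3; log2 fold change -0.77, SE 0.21, limma-adjusted p 0.0373). With the replicate number (taken as the differentiation day) as a block, limma-adjusted p was 0.0864. Sox3 was also among the most GC-rich genes, with 66.6% G and C in its exons, above 99.8% of tested genes, and fold changes over all genes fell with GC content (Spearman's rho -0.461 over 12486 genes, not independent replicates). When per-library trends on GC content and exon length were subtracted, its log2 fold change became -0.51 (limma-adjusted p 0.154), so the call did not hold. It was also lost without wildtype replicate 1 (limma-adjusted p 0.0779) or 3 (0.116), and without EVX1-Δfs replicate 2 (0.0583) or 3 (0.201).

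Gbx2 (chromosome 1, 91824537 to 91829865, minus strand) had the lowest fold change of the 6. Across replicates 1, 2 and 3 it had 22.0, 35.4 and 22.9 normalized counts in wildtype EBs against 11.2, 16.9 and 8.58 in EVX1-Δfs EBs, which were 23, 40 and 20 reads against 12, 15 and 9. All 3 EVX1-Δfs libraries were below all 3 wildtype libraries. The difference did not pass the threshold (log2 fold change -1.09, SE 0.36, limma-adjusted p 0.0771). The 95% interval of the log2 fold change ran from -1.83 to -0.34 before any adjustment over genes.

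Pax6 (chromosome 2, 105509053 to 105543317, plus strand) differed in the opposite direction. It had 3.83, 7.96 and 11.5 normalized counts in the wildtype libraries against 14.9, 16.9 and 27.6 in the EVX1-Δfs libraries (replicates in order), from 4, 9 and 10 reads against 16, 15 and 29. The groups did not overlap, and EVX1-Δfs replicate 3, the lowest library for Sox3 and Gbx2, was the highest for Pax6. This difference did not pass either (log2 fold change 1.31, SE 0.44, limma-adjusted p 0.0803). Even the highest library held fewer Pax6 reads than any library held of Sox3. Groups that did not overlap were common in this table, at 26.9% of all genes tested, so the separation of these 3 of 6 genes is not particular by itself.

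Otx2 (chromosome 14, 49277354 to 49287319, minus strand) had 245, 202 and 314 normalized counts in the wildtype libraries against 328, 358 and 300 in the EVX1-Δfs libraries. The groups overlapped, because wildtype replicate 3 was above EVX1-Δfs replicate 3. With all libraries it was not called (log2 fold change 0.39, SE 0.15, limma-adjusted p 0.128). Single libraries moved this value both ways, to a call without wildtype replicate 3 (0.56, limma-adjusted p 0.0408) and to 0.24 without wildtype replicate 2 (limma-adjusted p 0.401). The other 4 libraries, left out in turn, gave no call (limma-adjusted p 0.185 to 0.273).

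Zic2 and Nes, the most abundant of the 10, were not called. Zic2 (chromosome 14, 122874604 to 122879074, plus strand) had 1044, 812 and 1089 normalized counts in the wildtype libraries against 1204, 1331 and 843 in the EVX1-Δfs libraries. Its log2 fold change was 0.18, with a 95% interval of -0.12 to 0.49 (limma-adjusted p 0.479). The EVX1-Δfs libraries spread more widely than the wildtype ones, with replicate 3 near the lowest wildtype library. Nes (chromosome 3, 87775000 to 87784373, plus strand) had 2520, 2018 and 2652 normalized counts in the wildtype libraries against 2449, 2252 and 2450 in the EVX1-Δfs libraries. Its log2 fold change was 0.00 with a 95% interval of -0.24 to 0.24 (limma-adjusted p 0.999), the tightest interval of the 6 genes.

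**Figure D2:**
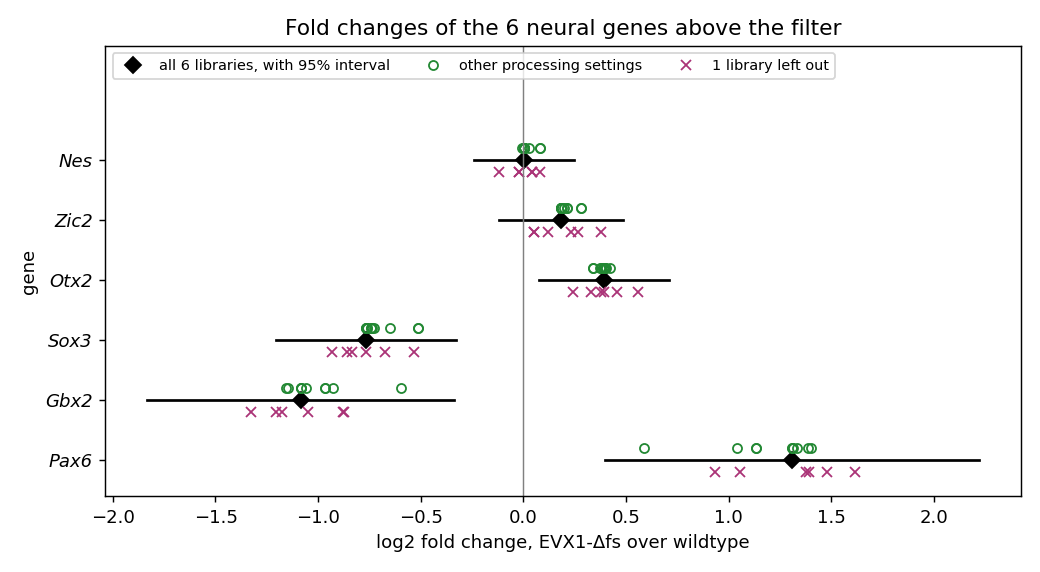
Log2 fold change (EVX1-Δfs over wildtype) of the 6 neural genes above the filter: diamonds with lines give limma's estimate and its 95% interval, circles the other processing settings, and crosses the fits without 1 library. Sox3 and Gbx2 stay below 0 and Pax6, Otx2 and Zic2 above 0 in every fit shown, while Nes lies on both sides of 0.

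The 4 genes below the filter were described by their reads. Sox1, the earliest gene specific to neural progenitors, had 2, 4 and 4 reads in the wildtype libraries against 1, 4 and 5 in the EVX1-Δfs libraries. Zic1 had 2, 4 and 3 reads against 0, 1 and 4. Hesx1 had 0, 1 and 1 reads against 0, 4 and 1, so 4 of its 7 reads came from EVX1-Δfs replicate 2. Six3 had 1 read in wildtype replicate 1 and 1 in EVX1-Δfs replicate 2, and 0 in the other libraries. A library with 0 reads of a gene allows up to 3 reads, or 2.65 to 3.44 normalized counts (counting error only). At this depth a difference between genotypes was not detectable for these genes, and in limma on all genes with any read none of the 4 was called (adjusted p from 0.456 to 0.980).

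A pair of ratios within each library was formed after the values had been seen, and is given as a description with no test. The Otx2 count was 11.1, 5.70 and 13.7 times the Gbx2 count in wildtype EBs, and 29.3, 21.1 and 35.0 times in EVX1-Δfs EBs. The Sox2 count was 7.30, 7.95 and 7.23 times the Sox3 count in wildtype and 16.2, 13.8 and 22.1 times in EVX1-Δfs. SOX2, the other SOXB1 factor, is shared by the pluripotent epiblast and the neural plate. In both ratios all EVX1-Δfs libraries were above all wildtype libraries. For Sox2 over Sox3 this had to be so, since the groups of each gene did not overlap and the fold changes were opposite. Otx2 and Gbx2 also had opposite fold changes, so the ratios restate the values of the single genes and add no evidence. The mean log2 ratio differed by 1.48 for Otx2 over Gbx2 and by 1.18 for Sox2 over Sox3, and by 1.31 and 1.00 once the GC and length trends had been subtracted.

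**Figure D3:**
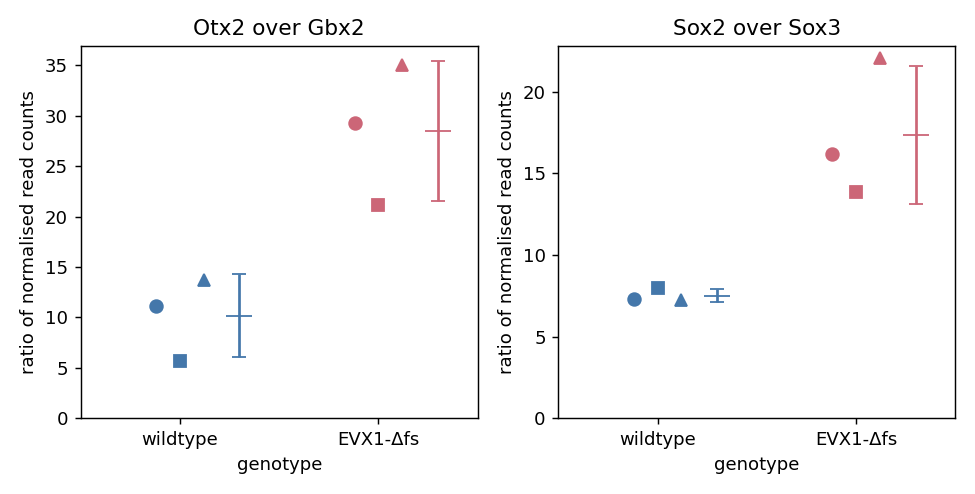
Ratio of normalized read counts within each library (not per length) of Otx2 over Gbx2 and of Sox2 over Sox3, with the mean and SD of 3 libraries at the side of each group (circles, squares and triangles are replicates 1, 2 and 3). The Otx2 ratio lies at 5.70 to 13.7 in wildtype and 21.1 to 35.0 in EVX1-Δfs, and the Sox2 ratio at 7.23 to 7.95 and 13.8 to 22.1.

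Relatives of these genes were taken from a list of 30 other transcription factors of the neural plate. Only 10 of the 30 were above the filter, and Fezf2, a forebrain factor, had 0 reads throughout. Of these 10, 1 was called higher and 0 lower, with 5 fold changes above and 5 below 0 and a median log2 fold change of 0.05, against 0.00 over all genes tested.

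Sox2 had 859, 823 and 969 normalized counts in the wildtype libraries against 1406, 1045 and 1093 in the EVX1-Δfs libraries. These groups did not overlap. The difference was just short of the threshold in limma (log2 fold change 0.41, SE 0.12, adjusted p 0.0559). It was called in DESeq2 and edgeR (adjusted p 0.0346 and 0.0423) and with the trends subtracted (0.49, limma-adjusted p 0.0307). It was not called with the replicate number as a block, alone (limma-adjusted p 0.0930) or with the trends subtracted as well (0.0515). Without EVX1-Δfs replicate 1, the highest library, its log2 fold change was 0.28 (limma-adjusted p 0.257). Sox11, a SOXC factor of neurons and their progenitors, was not called (log2 fold change 0.10, limma-adjusted p 0.707).

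En1 and Otx1 were singled out after their values had been seen, as relatives of the Otx2 and Gbx2 pair. En1, a midbrain and hindbrain factor, had 19.1 to 22.9 normalized counts in wildtype and 6.67 to 11.2 in EVX1-Δfs libraries (log2 fold change -1.19, limma-adjusted p 0.0652). It passed the filter through the wildtype libraries, since only 1 EVX1-Δfs library reached 10, so its inclusion already favoured a difference. Otx1, the paralog of Otx2, had 37.3 to 43.4 against 24.8 to 28.2 (log2 fold change -0.60, limma-adjusted p 0.169). Neither passed the test, and both are given as values only. From the same list, En2 (4.42 to 13.7 against 1.91 to 9.34) and Gbx1 (at most 2.87) were below the filter, and their groups overlapped. The tested genes of the list had 5 fold changes above and 5 below 0, so En1 and Otx1 do not stand for the list.

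A second list held 24 genes of neural progenitors and neurons, of which 15 were tested. Of these, 1 was called higher and 1 lower, with a median log2 fold change of 0.05. Dll1, a Notch ligand of neural progenitors that the presomitic mesoderm also transcribes, fell from 87.8 ± 4.37 normalized counts in wildtype to 52.8 ± 0.818 in EVX1-Δfs EBs (SD, n = 3; log2 fold change -0.72, limma-adjusted p 0.0373). Prom1, a membrane glycoprotein of progenitor cells, rose from 343 ± 31.1 to 489 ± 64.2 (SD, n = 3; log2 fold change 0.50, limma-adjusted p 0.0317). Blocking on the replicate number raised these limma-adjusted p to 0.0729 and 0.0566. Neither gene was called once the GC and length trends had been subtracted. Dll1 lost its call whichever of the 6 libraries was left out (limma-adjusted p 0.0655 to 0.109). Prom1 lost it without wildtype replicate 2 (0.0686) or 3 (0.0767), and without EVX1-Δfs replicate 1 (0.141) or 3 (0.112).

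Cdh2, which encodes N-cadherin, and Stmn2, a neuronal microtubule regulator, were the most abundant of the list that were not called. Their log2 fold changes were -0.28 and 0.12 (limma-adjusted p 0.178 and 0.626). The proneural genes Neurog1 and Neurog2 were among the 9 genes below the filter, and Olig2 had 0 reads throughout. None of the 9 exceeded 13.3 normalized counts in a library.

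Markers of the other cell types in these EBs are given beside these values. The lists were chosen with earlier results of these data known. The paper reports several of their genes, many of them posterior, as changed in these same libraries. The numbers of calls and the medians are thus a description and no independent test. Of 18 epiblast and pluripotency genes, all tested, 2 were called higher (Fgf4 and Fgf5) and 1 lower (Tbx3), with a median log2 fold change of 0.08. Their summed normalized counts were 31282 to 42843 in wildtype and 35043 to 42236 in EVX1-Δfs libraries. Of 16 anterior visceral and definitive endoderm genes, 13 were tested, with 3 higher (Cer1, Foxa2 and Sox17) and 1 lower (Cxcr4). The median was -0.25, and the sums were 5451 to 8812 against 6282 to 7264. The paper lists Tbx3 and Cxcr4 among the falling genes that it ties to patterning of posterior mesoderm. Of 20 primitive streak and posterior mesoderm genes, 0 were higher and 16 lower, with a median of -0.91 and sums of 23742 to 25363 against 14699 to 17804.

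The sum of the posterior list thus did not overlap between the genotypes, while the sums of the epiblast and anterior endoderm lists did, as did that of the 10 neural genes (3187 to 4232 in wildtype and 3689 to 4095 in EVX1-Δfs libraries). A sum is set mostly by its most abundant genes, such as Trh (wildtype mean 3890) and Nes (2397), so genes with lower counts can shift unseen. Gene by gene, the groups did not overlap for 18 of 20 posterior and 8 of 18 epiblast genes tested. The same held for 5 of 13 anterior endoderm and 3 of 6 neural genes tested, and for 26.9% of all genes tested. Cdx1, Cdx4 and Wnt3a of the posterior list passed the filter mainly through the wildtype libraries, and Pax6 through the EVX1-Δfs libraries. For such genes inclusion already favoured a separation. Of these marker lists no gene was at 0 in all libraries. The part of these cell types in the values of Sox3, Gbx2, Pax6, Otx2 and Dll1 was not tested. The edited gene Evx1 had 2176 to 2400 normalized counts in wildtype and 2012 to 2516 in EVX1-Δfs libraries. Reads per gene do not reveal a small deletion, so these values are no test of the edit.

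**Figure D4:**
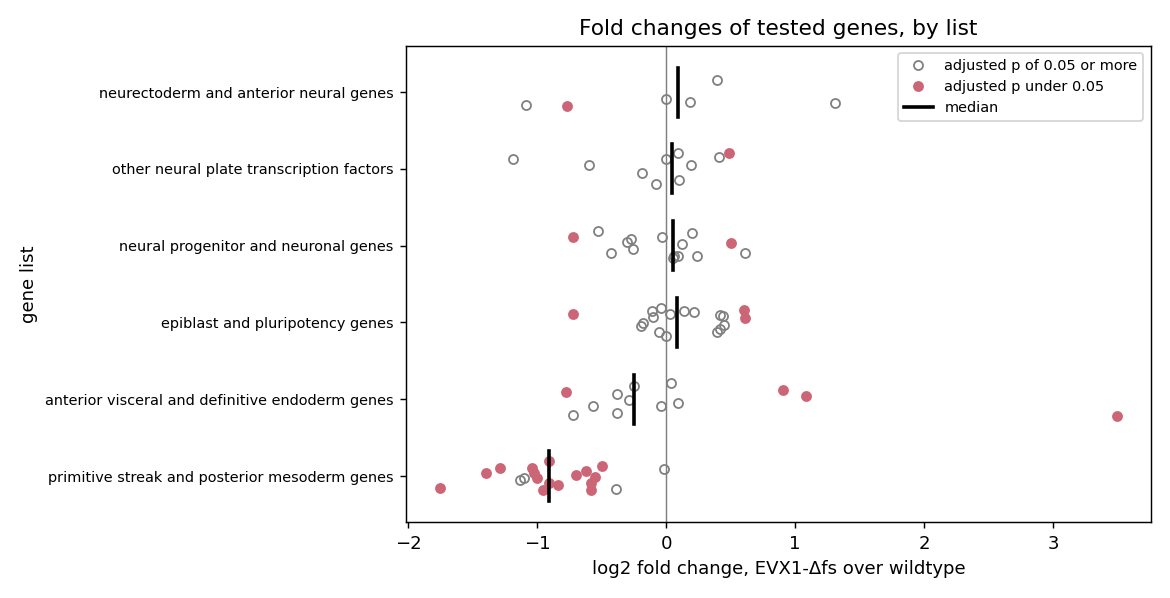
Log2 fold change (EVX1-Δfs over wildtype) of every tested gene in the 10 neural genes and the 5 other lists, with filled points for genes at a limma adjusted p under 0.05 and a black bar at each median. The neural lists spread on both sides of 0 with medians of 0.09, 0.05 and 0.05, and the posterior list lies at or below 0 with a median of -0.91.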

How the data were processed

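RNA-seq of day 4 EBs was compared between 3 wildtype and 3 EVX1-Δfs libraries, grouped by the sample titles. As the labels and methods state, the authors made mRNA libraries, sequenced them on an Ion Proton, mapped to mm9 (TopHat2, then TMAP) and counted with HTSeq at its standard settings. Versions are not given in the sources used here. The values the authors deposited are a signal: gene counts that each library's own factor had divided. Whole reads were recovered for 100% of values (within 0.01 of a read).

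The main test was limma 3.58.1 with a mean-variance trend, on log2(normalized count + 1). It covered the 13136 genes that reached 10 normalized counts in 3 or more libraries. This scale understates the change of low genes. DESeq2 1.42.0 and edgeR 4.0.16 (R 4.3.3) took the recovered reads as their input in alternative fits, and called 801 and 687 genes against 660 in limma. Trends on GC content and exon length (natural splines, 5 degrees of freedom) were removed in another. Symbols matched GENCODE vM1 for 21207 genes (90.8%). The fits were tested on simulated counts with 200 genes changed by a log2 value of 1.5, all well above the filter. Limma, DESeq2 and edgeR recovered 100%, 99.5% and 100% of them, with 7.41%, 6.57% and 6.1% of calls false. Neither changes as small as that of Sox3 nor changes in genes as low as Gbx2 and Pax6 were simulated.

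Per the series' design, each side-by-side differentiation had its own day, so the replicate number was taken to pair libraries. Deviations from group means correlated at 0.111, 0.00933 and -0.101 for replicates 1, 2 and 3 (13136 genes). The fit with the block called 222 genes. The genes and lists were chosen with earlier results of these data known. From each other list, called genes (at most 6, by adjusted p) and the 2 most abundant genes not called could be named. Some genes that met this rule are not reported here.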

Additional observations from a re-analysis of the deposited data

How the results depend on the processing

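The count of neural genes called rested on Sox3. The count lower was 0 in place of 1 with all genes with any read (Sox3 adjusted p of 0.0614), with the replicate block, with GC and length trends removed, and with both (0.193), and was 0 to 1 when 1 library was left out. The count higher was 0 to 1 across those fits, with 1 (Otx2) without wildtype replicate 3. DESeq2 gave no adjusted p for Gbx2 and Pax6, and the filter at 50 left both out. Over all genes, 76 were called higher and 146 lower with the block, 98 and 175 with trends removed, 56 and 120 with both, and 77 to 332 higher and 138 to 355 lower when 1 library was left out. DESeq2 called 284 higher and 517 lower.

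The other neural plate factors called numbered 2 with upper-quartile factors, DESeq2 and edgeR, 0 with the block alone or with trends removed as well, and 0 to 2 when 1 library was left out. The neural progenitor and neuronal list had 1 call with all genes with any read, 0 with the block, with trends removed or with both, and 0 to 1 when 1 library was left out. The epiblast list had 6 with upper-quartile factors, DESeq2 and edgeR, 1 with the block, and 1 to 6 when 1 library was left out. The anterior endoderm list had 2 with all genes with any read or the block, and 1 to 4 when 1 library was left out. The posterior list had 10 with the block and trends removed. The causes of these shifts were not tested.

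Upper-quartile scaling called 370 genes higher and 325 lower, so 53.2% were higher against 41.4%. Of 104 values of the 6 tested neural genes, 91 kept direction and side of the threshold, 8 were weaker (all Sox3), 1 was stronger and 4 were reversed (all Nes). Nes was -0.00707 in DESeq2, and from -0.118 to 0.0787 when 1 library was left out. Of 468 values of 26 other genes that met the naming rule, 399 were kept, 49 were weaker, 7 were stronger and 13 were reversed. The weaker values, where a call was lost, included 10 of Dll1, 7 each of Prom1 and Fgf5, and 6 of Sox17. They also included 5 of Cxcr4, 4 of Fgf4 and 3 of Foxa2. The reversed values were Evx1 at 0.0126 (upper quartile), 0.000334 (edgeR) and 0.177 (trends removed, with or without the block), Pou5f1 at 0.0783 (the same), and, when 1 library was left out, Evx1 from -0.0858 to 0.0755, Pou5f1 from -0.223 to 0.176, Sox11 from -0.0713 to 0.223, Stmn2 from -0.0172 to 0.222 and Trh from -0.131 to 0.354. The block changed the calls of Sox3, Dll1, Prom1, Fgf4 and Fgf5, Foxa2 and Sox17 (adjusted p of 0.0579, 0.0624, 0.0667 and 0.0564 for the last 4) and no other call of a gene named in the text.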
